A study of Homo sapiens with 8 samples.

Results

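Heat shock proteins and the chaperones of the endoplasmic reticulum (ER) were followed in ChIRP RNA (chromatin isolation by RNA purification) of human acute myeloid leukaemia cells. A named list of 51 genes of the cytosolic, mitochondrial and ER folding machinery and of the unfolded protein response was matched by symbol to the 63140 genes of the count table, and all 51 were found. Each of 4 groups held 2 libraries, replicate 1 labelled MOLM13 and replicate 2 labelled OCI-AML4, both of them established leukaemia lines, and all cells were collected on day 3 after editing. In HOTSCRAMBL KO the cells had received Cas9 nuclease loaded with guides against the long non-coding RNA HOTSCRAMBL, and in HOTSCRAMBL CBE a cytosine base editor, which changes C to T without cutting both strands, with guides against the same RNA. AAVS1 KO and AAVS1 CBE are the controls of the same 2 treatments: their genotype label is WT, but they too were nucleofected and edited, at the AAVS1 site in an intron of PPP1R12C. Every group had therefore gone through nucleofection, editing, glutaraldehyde fixation, sonication and pull-down with biotinylated probes. The labels name neither the RNA that the probes bind nor an input library, so a value here is an amount of RNA in a pull-down, and the amount in the cell and its recovery cannot be told apart. HOTSCRAMBL itself is not analysed here. Each group had 1 library per labelled line. The p-values therefore rest on a spread between libraries that was estimated over all 8 of them and drawn towards that of other genes. Nothing in the labels says that the libraries came from more than 1 culture of each line.

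HSP70 proteins bind exposed hydrophobic stretches of unfolded proteins and release them in cycles of ATP hydrolysis, which J proteins (DNAJ) start and nucleotide exchange factors end. HSP90 takes over many clients at a later stage, the ring-shaped TRiC chaperonin folds actin and tubulin, and the HSP60 and HSP10 pair folds proteins imported into mitochondria. In the cytosol, heat shock factor 1 (HSF1) raises the transcription of the inducible members when unfolded protein accumulates. In the ER, the sensors IRE1 (ERN1) and ATF6 raise those of the ER lumen, in part through the transcription factor XBP1, whose mRNA IRE1 splices.

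Promoters of these genes can carry the elements through which the 2 responses act. A few are shown, from a hand-made choice of genes, where such an element lay outside annotated exons. The choice was made with earlier results of these data known. Of the genes shown, HSPA1B, DNAJB1, HSP90AB1, XBP1 and CRELD2 passed in the test of the difference between editors given below. HSPA1A and HSPA5 passed with neither editor. CCT5 and MANF moved further than most of the genes, but neither element marked below was found in their promoters, which are not shown. Sequences are from RefSeq (GRCh38.p14), on the strand of the gene, and are the stretch of the 250 bases before the annotated start that lies outside annotated exons. The first group is from the cytosolic heat shock genes. Capitals mark heat shock units, pairs of GAA and TTC facing each other, as GAANNTTC or TTCNNGAA, extended where units follow each other without a gap. HSPA1A is at chr6:31815293-31815542, HSPA1B at chr6:31827488-31827737, DNAJB1 at chr19:14518408-14518647 and HSP90AB1 at chr6:44247693-44247865.
HSPA1A: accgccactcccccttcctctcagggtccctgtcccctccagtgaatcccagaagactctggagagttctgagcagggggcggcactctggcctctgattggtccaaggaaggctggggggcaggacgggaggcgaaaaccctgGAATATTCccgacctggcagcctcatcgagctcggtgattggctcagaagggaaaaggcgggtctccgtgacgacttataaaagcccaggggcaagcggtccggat
HSPA1B: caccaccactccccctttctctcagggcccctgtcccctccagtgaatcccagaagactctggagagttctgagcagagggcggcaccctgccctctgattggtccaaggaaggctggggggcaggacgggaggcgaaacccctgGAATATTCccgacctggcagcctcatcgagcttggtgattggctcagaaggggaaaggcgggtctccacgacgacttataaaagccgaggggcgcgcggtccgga
DNAJB1: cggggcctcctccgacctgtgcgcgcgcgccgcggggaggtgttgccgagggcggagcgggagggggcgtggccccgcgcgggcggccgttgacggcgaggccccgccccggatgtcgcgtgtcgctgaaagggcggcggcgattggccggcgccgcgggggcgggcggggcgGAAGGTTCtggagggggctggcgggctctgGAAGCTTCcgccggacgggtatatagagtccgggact
HSP90AB1: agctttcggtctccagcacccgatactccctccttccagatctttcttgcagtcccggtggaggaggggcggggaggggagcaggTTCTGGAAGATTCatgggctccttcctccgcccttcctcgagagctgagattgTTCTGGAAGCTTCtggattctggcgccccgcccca

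In the second group, from the ER response, capitals mark the ER stress element, CCAAT and CCACG with 9 bases between them, on either strand. XBP1 is at chr22:28800598-28800682, CRELD2 at chr22:49918439-49918633 and HSPA5 at chr9:125241383-125241593.
XBP1: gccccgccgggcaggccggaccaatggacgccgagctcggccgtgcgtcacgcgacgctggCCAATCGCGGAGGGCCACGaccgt
CRELD2: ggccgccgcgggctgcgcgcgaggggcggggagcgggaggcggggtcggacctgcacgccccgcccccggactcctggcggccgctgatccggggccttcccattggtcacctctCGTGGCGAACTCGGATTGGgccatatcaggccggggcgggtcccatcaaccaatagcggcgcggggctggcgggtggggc
HSPA5: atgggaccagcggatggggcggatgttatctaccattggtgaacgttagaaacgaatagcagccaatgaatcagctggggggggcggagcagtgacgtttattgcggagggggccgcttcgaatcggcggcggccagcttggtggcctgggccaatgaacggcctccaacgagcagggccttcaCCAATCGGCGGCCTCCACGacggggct

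The table of promoters had an entry for 47 of the 51 genes, with 65 promoters in all because some genes have several. GAANNTTC was found in 13 of these 65 (20.0%) and in 5.78% of all 35116 promoters of the same length, and TTCNNGAA in 7 (10.8%) and 6.62%. Both strands were searched, and both motifs read the same on either strand. A run of 3 or more units stood in 5 of 65 (7.7%), those of DNAJB6, HSP90AA1, HSP90AB1, HSPA8 and HSPD1, against 0.44% of all promoters. The ER stress element was found in 8 of 65 (12.3%), those of CALR, CRELD2, HSP90B1, HSPA5, PDIA6 and XBP1 and 2 of CANX, against 0.07% of all. HSPA1A and HSPA1B, neighbouring genes on chromosome 6, have nearly the same promoter, with 235 of 249 aligned bases identical (94.4%) and the same GAATATTC unit in both. These are matches of letters and say nothing of binding in these cells.

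Library totals ran from 20548300 to 37970163 counts, and between 21945 and 26083 genes were detected per library. Levels are given as CPM, counts relative to library size after scaling by the trimmed mean of M values (TMM), and pairs of values are in the order MOLM13, OCI-AML4. Markers of myeloid leukaemia cells summed to between 2247 and 2537 CPM in every library, while those of T cells, B cells, erythroid cells, fibroblasts and epithelial cells summed to at most 12.4 CPM each. The make-up of the recovered RNA differed between HOTSCRAMBL and control libraries: all 20 cytosolic ribosomal protein mRNAs of a fixed list rose with both editors (median log2 fold change 1.75 with KO and 1.40 with CBE), as did all 10 abundant cytosolic mRNAs of another (0.88 and 1.03). Of 4 nuclear-retained RNAs tested, 2 rose and 1 fell with KO (median 0.53), and 3 fell with CBE (median −0.34). Transcripts of the mitochondrial genome took 6.77% to 7.23% of the counts in the 4 AAVS1 libraries and 10.2% to 11.85% in the 4 HOTSCRAMBL libraries, without overlap. The part of these shifts in the results below was not tested.

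Against the AAVS1 library of the same editor, chaperone mRNAs were on balance recovered in larger amounts. Of the 51, 4 rose with both editors (7.84%), where 3.07% of all genes passed with both in the same direction. Among these 4, only CCT5 kept both of its calls in each of 18 alternative analyses. All 51 genes passed the filter on low counts. Most of them had a mean of at least 10 CPM, as did 9645 of the 24057 genes tested. The shares of all genes given in this report are not matched for level. The part of level in the gap between the 51 and all genes was not tested. With KO, 12 of 51 passed the threshold of an edgeR Benjamini-Hochberg adjusted p of 0.05 (23.5%), 11 higher and 1 lower, where 8.76% of all 24057 genes tested passed, 4.51% higher and 4.25% lower. The median log2 fold change was 0.29 for the 51 genes and −0.01 for all genes. With CBE, 16 of 51 passed (31.4%), 15 higher and 1 lower, against 8.83% of all genes (4.56% higher and 4.27% lower), and the medians were 0.32 and −0.02. With no adjustment, 23 of the 51 had an edgeR p under 0.05 with KO (45.1%, against 20.1% of all genes) and 25 with CBE (49%, against 20.1%). Both libraries of a HOTSCRAMBL group lay outside the range of their controls for 35 of 51 genes with KO (68.6%, against 44.8% of all genes) and for 39 with CBE (76.5%, against 46.4%). In bulk RNA, a change in the share of cells and a change in the RNA of each cell cannot be told apart.

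These directions are relative to TMM scaling. With library totals alone the median of all genes moved to −0.17 with KO and −0.15 with CBE, the share of higher genes among all calls went from 51.5% to 33.1% with KO and from 51.6% to 32.6% with CBE, and the chaperone calls became 8 higher and 5 lower with KO and 10 higher and 2 lower with CBE. For KO the count of 12 became 3 without AAVS1 KO replicate 1, 7 without AAVS1 KO replicate 2, 5 without HOTSCRAMBL KO replicate 1 and 4 without HOTSCRAMBL KO replicate 2. With CBE the count of 16 became 7 without either AAVS1 CBE replicate, 6 without HOTSCRAMBL CBE replicate 1 and 11 without HOTSCRAMBL CBE replicate 2. RLE scaling ended the calls of HSP90AB1 with KO and of HSPA8 and P4HB with CBE. Library totals ended those of HSPH1, DNAJA2 and P4HB with KO and of HSPA8, CALR, PDIA3, PDIA6 and P4HB with CBE, and limma-voom that of MANF with CBE (log2 fold change 1.81, limma-voom adjusted p 0.0558). DESeq2 called 21 of the 51 with KO, adding HSPA4, HSPB1, HSF1, HSPA9, HSPD1, CCT3, CCT7, CALR and CANX to the 12, and 20 with CBE, adding TCP1, CCT3, DNAJA2 and DNAJB1 to the 16. HSPA1B, DNAJB1 and CCT5 kept their KO call, and HSP90AB1, HSPB1, CCT5, CANX and XBP1 their CBE call, in each of 18 alternative analyses.

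**Figure D1:**
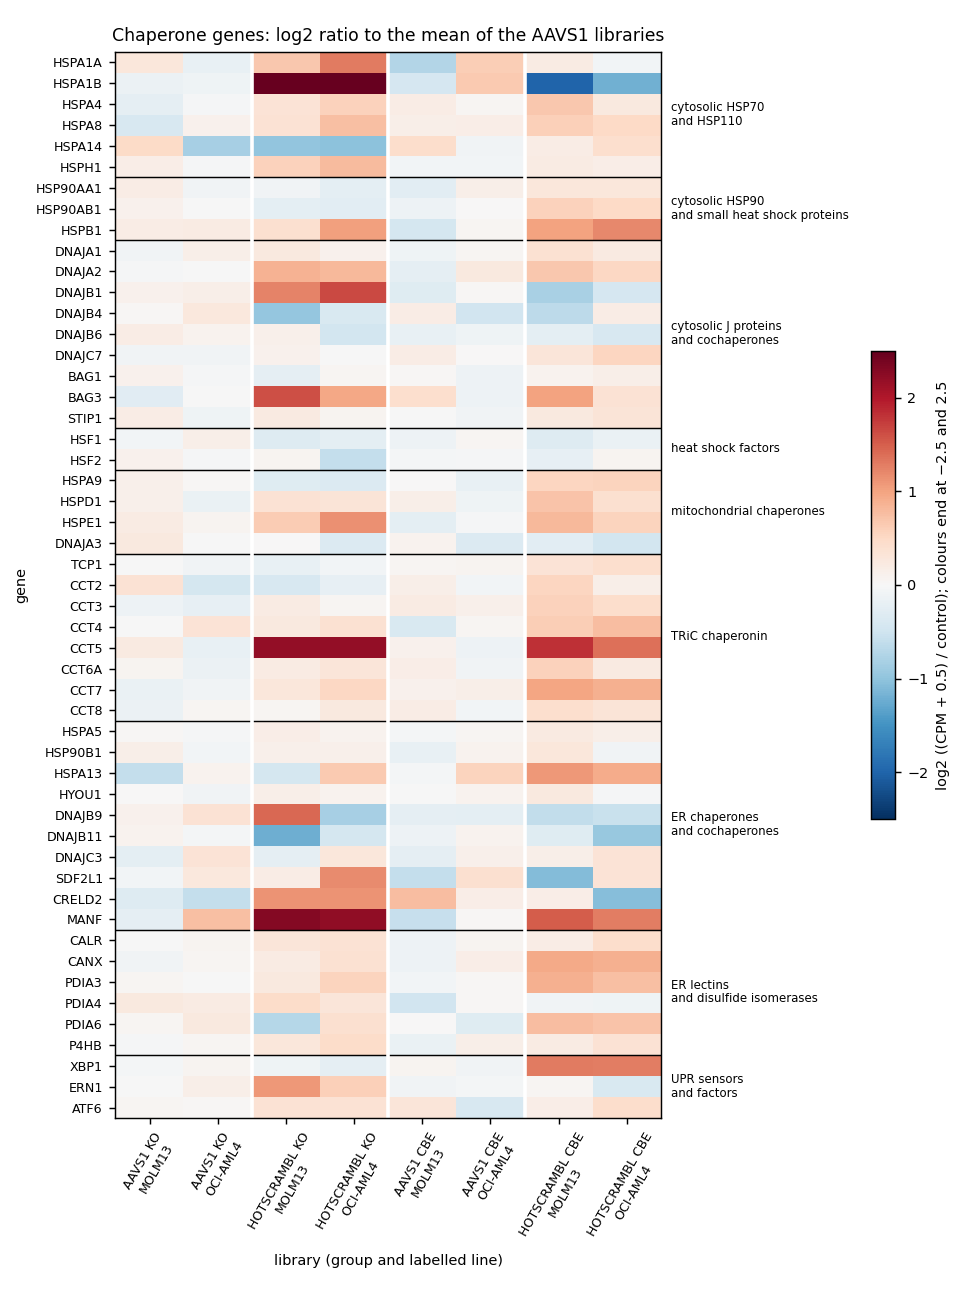
Heat map of the 51 chaperone genes (rows, grouped by role) in the 8 libraries (columns, by group and labelled line). Colour gives the log2 ratio of CPM (with 0.5 added) to the mean of the 4 AAVS1 libraries, with colours ending at −2.5 and 2.5; HSPA1B is dark red in both HOTSCRAMBL KO libraries and blue in both HOTSCRAMBL CBE libraries, while CCT5 and MANF are red in all 4 HOTSCRAMBL libraries.

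Among the cytosolic HSP70 genes, HSPA1B moved furthest and in opposite directions with the 2 editors. HSPA1B (ENSG00000204388, chromosome 6, 31827738 to 31830254) encodes the stress-inducible HSP70. It was recovered at 18.4 and 18.8 CPM from AAVS1 KO cells, 196 and 167 CPM from HOTSCRAMBL KO, 15.1 and 32.3 CPM from AAVS1 CBE and 4.71 and 8.58 CPM from HOTSCRAMBL CBE. Both HOTSCRAMBL KO libraries were thus far above every other library, and both HOTSCRAMBL CBE libraries below every control. The rise with KO was 9.78-fold (log2 fold change 3.29 with SE 0.249, edgeR adjusted p 2.83e-10). The fall with CBE was 3.63-fold (log2 fold change −1.86 with SE 0.402, edgeR adjusted p 0.00265), a call that was lost without AAVS1 CBE replicate 2 (−1.22, edgeR adjusted p 0.183) or HOTSCRAMBL CBE replicate 1 (−1.48, edgeR adjusted p 0.243).

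HSPA1A (ENSG00000204389, chromosome 6, 31815543 to 31817946), its near-identical neighbour, held between 0.36 and 3.04 CPM in all 8 libraries. Of the 75-base windows of HSPA1A transcripts 71.2% also occur in another gene, as do 70.1% of those of HSPA1B, and reads with more than 1 place in the genome were not counted. The division of reads between the pair is therefore uncertain, and so is the absolute level of either. HSPA1A did not pass with either editor (log2 fold change 1.26 with KO, 95% interval −0.79 to 3.31, and 0.10 with CBE, −2.13 to 2.33), and the sign with CBE turned to −0.04 without TMM, −0.67 without AAVS1 CBE replicate 1 and −0.52 without HOTSCRAMBL CBE replicate 1. HSPA1B also shares 36.6% of its exon length with ENSG00000285565, which held 0 counts in every library; reads falling in both genes were left out.

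HSPA8, the HSP70 that all cells make without stress, rose with both editors. With KO it went from 161 and 229 to 274 and 359 CPM (log2 fold change 0.70 with SE 0.135, edgeR adjusted p 0.000765). With CBE it went from 235 and 238 to 322 and 302 CPM (log2 fold change 0.41 with SE 0.127, edgeR adjusted p 0.0448). In both comparisons the groups did not overlap. The KO call was lost without AAVS1 KO replicate 1 (0.51, edgeR adjusted p 0.157) or HOTSCRAMBL KO replicate 2 (0.56, edgeR adjusted p 0.117). With CBE it was lost without any 1 library other than HOTSCRAMBL CBE replicate 2, with log2 fold changes from 0.20 (edgeR adjusted p 0.681, without HOTSCRAMBL CBE replicate 1) to 0.54 (edgeR adjusted p 0.151, without AAVS1 CBE replicate 1), and at 0.40 (edgeR adjusted p 0.138) without the line term.

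HSPH1, an HSP110 that serves HSP70 as nucleotide exchange factor, rose with KO from 99.3 and 86.5 to 131 and 152 CPM (log2 fold change 0.61 with SE 0.157, edgeR adjusted p 0.0118). That call was lost without AAVS1 KO replicate 1 (0.74, edgeR adjusted p 0.0728), AAVS1 KO replicate 2 (0.50, edgeR adjusted p 0.234) or HOTSCRAMBL KO replicate 2 (0.46, edgeR adjusted p 0.208). With CBE it stood at 83.4 and 83.8 against 101 and 98.5 CPM and did not pass (0.26, edgeR adjusted p 0.381). HSPA4, another HSP110, had log2 fold changes of 0.59 with KO (edgeR adjusted p 0.0861) and 0.37 with CBE (edgeR adjusted p 0.272). HSPA14, which acts at the ribosome, had −1.03 (SE 0.575, edgeR adjusted p 0.334) and 0.07.

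The cytosolic HSP90 genes were among the most abundant of the list and were lower with KO than with CBE relative to their controls. HSP90AB1 (ENSG00000096384, chromosome 6, 44246166 to 44253888), the constitutive form, gave 974 and 899 CPM from AAVS1 KO cells, 762 and 755 from HOTSCRAMBL KO, 828 and 913 from AAVS1 CBE and 1338 and 1266 from HOTSCRAMBL CBE. The HOTSCRAMBL KO libraries were the lowest of all and the HOTSCRAMBL CBE libraries the highest. The rise with CBE was 1.5-fold (log2 fold change 0.58 with SE 0.0864, edgeR adjusted p 3.5e-05). The fall with KO (−0.30, SE 0.0885, edgeR adjusted p 0.029) was lost without the line term (edgeR adjusted p 0.125), without any 1 of the 4 KO libraries (−0.24 to −0.35, edgeR adjusted p 0.125 to 0.419; the weakest without AAVS1 KO replicate 1) and without AAVS1 CBE replicate 2 (edgeR adjusted p 0.0547).

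HSP90AA1, the stress-inducible form, ranged from 743 to 1078 CPM and passed with neither editor (−0.23 with KO, edgeR adjusted p 0.237, and 0.32 with CBE, edgeR adjusted p 0.0655). Its CBE value passed without AAVS1 CBE replicate 2 (0.61, edgeR adjusted p 0.00858), with no filter on low counts (0.33, edgeR adjusted p 0.0225) and with the earlier form of the edgeR test (0.32, adjusted p 0.0147), and its KO value without TMM (−0.39, edgeR adjusted p 0.024). HSPB1, the small heat shock protein HSP27, which keeps unfolded proteins soluble, rose with CBE from 32.3 and 45.3 to 88.6 and 102 CPM, 2.49-fold (log2 fold change 1.31 with SE 0.19, edgeR adjusted p 2.3e-05). With KO it stood at 49.9 and 50.6 against 57.9 and 89.5 CPM (0.55, edgeR adjusted p 0.11), with both libraries above their controls.

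Of the 9 J proteins and cochaperones of the cytosol, 3 rose with KO, where 4.51% of all genes were called higher. With CBE edgeR called 0 of 9, against 8.83% of all genes, while DESeq2 called DNAJA2 and DNAJB1. With CBE 3 of the 9 had an unadjusted edgeR p under 0.05, against 20.1% of all genes. DNAJA2 had 0.60 with CBE (edgeR adjusted p 0.101) and DNAJB1 an edgeR adjusted p of 0.0513. DNAJB1 (ENSG00000132002, chromosome 19, 14514769 to 14560391), HSP40, is the main inducible J protein that delivers clients to HSP70. It gave 111 and 114 CPM from AAVS1 KO cells, 243 and 324 from HOTSCRAMBL KO, 83.4 and 104 from AAVS1 CBE and 58.0 and 76.2 from HOTSCRAMBL CBE. The KO libraries were above all others, as for HSPA1B, and the rise was 2.5-fold (log2 fold change 1.32 with SE 0.139, edgeR adjusted p 1.29e-07). With CBE the value was −0.49 (SE 0.156), with both libraries below both controls; 6 alternatives brought it past the threshold, with values from −0.63 without TMM (edgeR adjusted p 0.00847) to −0.48.

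BAG3, a nucleotide exchange factor that directs HSP70 clients to autophagy, rose with KO from 8.58 and 10.4 to 33.4 and 21.0 CPM (log2 fold change 1.51 with SE 0.378, edgeR adjusted p 0.00937). With CBE it stood at 14.3 and 9.64 against 21.8 and 13.7 CPM, and these groups overlapped (0.58, edgeR adjusted p 0.374). The KO call was lost without AAVS1 KO replicate 1 (1.04, edgeR adjusted p 0.367), HOTSCRAMBL KO replicate 1 (1.37, edgeR adjusted p 0.166) or HOTSCRAMBL KO replicate 2 (1.62, edgeR adjusted p 0.0561). DNAJA2, a J protein of the constitutive HSP70, rose with KO from 32.0 and 32.6 to 60.2 and 57.5 CPM (0.86, SE 0.239, edgeR adjusted p 0.0208), and this call was lost without any 1 of the 4 KO libraries (0.78 to 0.95, edgeR adjusted p 0.102 to 0.2). The remaining members, DNAJA1, DNAJB4, DNAJB6, DNAJC7, BAG1 and STIP1, the adaptor between HSP70 and HSP90, had log2 fold changes between −0.81 and 0.15 with KO and between −0.18 and 0.35 with CBE.

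The heat shock factors did not pass with edgeR. HSF1, the main activator of the inducible genes above, gave 216 and 252 CPM from AAVS1 KO cells, 182 and 193 from HOTSCRAMBL KO, 209 and 235 from AAVS1 CBE and 182 and 203 from HOTSCRAMBL CBE. All 4 HOTSCRAMBL libraries were below all 4 controls, by −0.32 with KO (SE 0.122, edgeR adjusted p 0.12) and −0.21 with CBE (SE 0.117, edgeR adjusted p 0.34). The KO value of HSF1 passed with DESeq2 (−0.29, DESeq2 adjusted p 0.00916) and without TMM (−0.48, edgeR adjusted p 0.0111). HSF2 had −0.28 and −0.06. HSF1 acts through its protein, whose state RNA counts do not show.

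**Figure D2:**
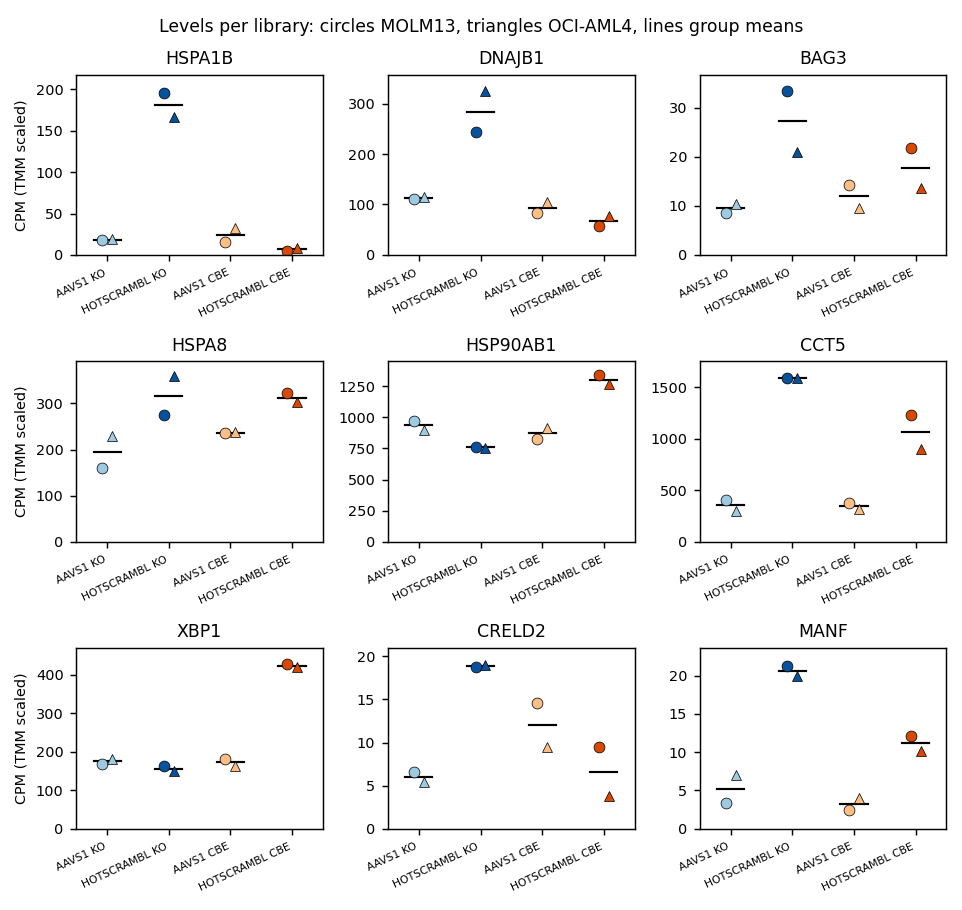
Levels of 9 chaperone genes in CPM after TMM scaling (vertical axis, from 0) in the 4 groups; circles are libraries labelled MOLM13, triangles OCI-AML4, and lines the mean of the 2. HSPA1B, DNAJB1 and CRELD2 were highest in HOTSCRAMBL KO (HSPA1B at 196 and 167 CPM), XBP1 and HSP90AB1 in HOTSCRAMBL CBE (XBP1 at 429 and 420 CPM), and CCT5 and MANF were above the controls in both.

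Of the 4 mitochondrial chaperones, 2 rose with CBE, where 4.56% of all genes were called higher. With KO edgeR called 0, against 8.76% of all genes, and 2 had an unadjusted edgeR p under 0.05, against 20.1%. DESeq2 called HSPA9 and HSPD1 with KO. HSPA9, the mitochondrial HSP70, rose with CBE from 192 and 168 to 275 and 281 CPM (log2 fold change 0.63 with SE 0.117, edgeR adjusted p 0.00061), a call lost without AAVS1 CBE replicate 2 (0.55, edgeR adjusted p 0.0592). With KO it stood at 209 and 195 against 155 and 151 CPM, so both libraries were below their controls (−0.40, SE 0.128, edgeR adjusted p 0.0533). This KO value passed with DESeq2 (−0.37, DESeq2 adjusted p 0.00135) and without TMM (−0.56, edgeR adjusted p 0.00435). It also passed with limma-voom (−0.40, limma-voom adjusted p 0.0481) and with the earlier form of the edgeR test (−0.40, adjusted p 0.0362). HSPD1, which encodes HSP60, rose with CBE from 158 and 133 to 235 and 190 CPM (0.54, SE 0.126, edgeR adjusted p 0.00513) and had 0.36 with KO (edgeR adjusted p 0.11). The HSPD1 call was lost without AAVS1 CBE replicate 1 (0.57, edgeR adjusted p 0.108), AAVS1 CBE replicate 2 (0.53, edgeR adjusted p 0.105) or HOTSCRAMBL CBE replicate 1 (0.48, edgeR adjusted p 0.191). HSPE1, its HSP10 partner, had 0.82 and 0.88 with wide intervals (0.03 to 1.61 and 0.13 to 1.64) and edgeR adjusted p of 0.255 and 0.185. The KO interval leaves out 0, but the unadjusted edgeR p was 0.0524, since the intervals ignore the finite degrees of freedom. HSPE1 has 26 pseudogenes by symbol and HSPD1 18, and 11.8% and 10.1% of their 75-base windows also occur in another gene, so some of their reads were not counted. DNAJA3, the mitochondrial J protein, had −0.28 and −0.25.

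Of the 8 subunits of the TRiC ring, 1 rose with KO and 3 with CBE, where 4.51% and 4.56% of all genes were called higher. CCT5 (ENSG00000150753, chromosome 5, 10249929 to 10266389) gave 405 and 304 CPM from AAVS1 KO cells, 1588 and 1590 from HOTSCRAMBL KO, 374 and 316 from AAVS1 CBE and 1231 and 905 from HOTSCRAMBL CBE. All 4 HOTSCRAMBL libraries were above all controls, 4.54-fold with KO (log2 fold change 2.18 with SE 0.104, edgeR adjusted p 5.28e-14) and 3.08-fold with CBE (1.62, SE 0.102, edgeR adjusted p 2.47e-11), the smallest p of the 51 genes in each comparison. CCT5 moved in the direction of the ribosomal protein mRNAs given above with both editors, and the part of that shift in its rise was not tested. It shares 30.8% of its exon length with ENSG00000271980 on the opposite strand, which held between 0 and 26 counts per library; strand was not used in counting and reads falling in several genes were left out, so reads within that stretch were counted for neither gene.

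With KO the other subunits had log2 fold changes from −0.29 (CCT2) to 0.53 (CCT7), and edgeR called none of them, while DESeq2 called CCT3 (0.31, DESeq2 adjusted p 0.029) and CCT7 (0.55, DESeq2 adjusted p 0.00165). With CBE all 8 subunits were above 0 and their groups did not overlap for any of the 8, where 46.4% of all genes did not overlap. The gap was very small for CCT2, at 67.0 and 57.4 against 87.5 and 67.1 CPM. CCT4 rose from 34.7 and 46.5 to 69.6 and 77.0 CPM (0.87, SE 0.192, edgeR adjusted p 0.00317) and CCT7 from 53.4 and 54.5 to 98.9 and 92.4 CPM (0.83, SE 0.173, edgeR adjusted p 0.00172). The CCT4 call was lost without AAVS1 CBE replicate 1 (0.77, edgeR adjusted p 0.132) or HOTSCRAMBL CBE replicate 1 (0.79, edgeR adjusted p 0.147), and that of CCT7 also without AAVS1 CBE replicate 2 (0.85, 0.72 and 0.82 without these libraries in that order, edgeR adjusted p 0.0712, 0.149 and 0.0586). TCP1, CCT2, CCT3, CCT6A and CCT8 lay between 0.31 and 0.37 and did not pass with edgeR; DESeq2 called TCP1 (0.32, DESeq2 adjusted p 0.0293) and CCT3 (0.34, DESeq2 adjusted p 0.0161). CCT2, whose KO value turned to 0.07 without AAVS1 KO replicate 1 and to 0.03 without HOTSCRAMBL KO replicate 1, stood at 78.2 and 44.5 CPM in AAVS1 KO; its other 6 libraries lay between 45.8 and 87.5 CPM.

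In the ER lumen, the major chaperones did not pass, and 2 small secreted proteins, MANF and CRELD2, did. HSPA5, or BiP, the HSP70 of the ER and the usual marker of ER stress, ranged from 143 to 172 CPM over all 8 libraries. Its log2 fold change was 0.13 with KO (95% interval −0.13 to 0.40) and 0.19 with CBE (−0.06 to 0.44), and the KO sign turned to −0.03 without TMM. HSP90B1, the HSP90 of the ER, had 0.08 (−0.19 to 0.36) and 0.16 (−0.11 to 0.42); the former was −0.08 without TMM, and the latter −0.08 without AAVS1 CBE replicate 1 and −0.06 without HOTSCRAMBL CBE replicate 1. HYOU1, an exchange factor for HSPA5, had 0.16 and 0.07.

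MANF (ENSG00000145050, chromosome 3, 51385291 to 51389397), which slows the exchange of nucleotide on HSPA5, rose with both editors. With KO it went from 3.29 and 6.96 to 21.3 and 20.0 CPM (log2 fold change 2.01 with SE 0.465, edgeR adjusted p 0.00498), and with CBE from 2.46 and 4.03 to 12.1 and 10.2 CPM (1.83, SE 0.525, edgeR adjusted p 0.0259). The levels were low, and no HOTSCRAMBL library overlapped a control. The KO call was lost without AAVS1 KO replicate 1 (1.54, edgeR adjusted p 0.211), HOTSCRAMBL KO replicate 1 (1.86, edgeR adjusted p 0.0973) or HOTSCRAMBL KO replicate 2 (2.18, edgeR adjusted p 0.0536), and the CBE call without any 1 of the 4 CBE libraries (1.51 to 2.19, edgeR adjusted p 0.0795 to 0.37).

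CRELD2 (ENSG00000184164, chromosome 22, 49918167 to 49927540), an ER protein induced under ER stress together with MANF and a holder of the ER stress element shown above, rose with KO from 6.59 and 5.36 to 18.8 and 19.0 CPM (log2 fold change 1.68 with SE 0.459, edgeR adjusted p 0.0187). With CBE it stood at 14.6 and 9.47 CPM in the controls and 9.45 and 3.78 CPM after targeting HOTSCRAMBL (−0.81, edgeR adjusted p 0.303). The 2 control groups did not overlap either (−1.01, unadjusted edgeR p 0.0413, adjusted p 0.991). The KO call was lost without any 1 of the 4 KO libraries (1.34 to 2.08, edgeR adjusted p 0.0514 to 0.292).

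None of the other ER cochaperones passed in the main edgeR test. DNAJB9, a J protein and one of the best known targets of XBP1, gave 6.59 and 7.96 CPM from AAVS1 KO cells and 17.2 and 3.22 CPM from HOTSCRAMBL KO, so the labelled lines went opposite ways. Its KO value of 0.43 (95% interval −0.66 to 1.53) turned to −0.21 without AAVS1 KO replicate 1 and to −1.23 without HOTSCRAMBL KO replicate 1. With CBE it had −0.41 (−1.70 to 0.88), or 0.05 without HOTSCRAMBL CBE replicate 1. SDF2L1, a small partner of HSPA5 and its J proteins, had 0.70 (−0.36 to 1.77) and −0.26 (−1.43 to 0.91), the latter 0.02 without HOTSCRAMBL CBE replicate 1. DNAJB11, a J protein of the ER lumen, had −0.79 with KO (edgeR adjusted p 0.127), which passed without TMM (−0.95, edgeR adjusted p 0.0434) and with the earlier form of the edgeR test (−0.82, adjusted p 0.0451), and −0.54 with CBE. DNAJC3, another J protein, had −0.03 and 0.31, and HSPA13 0.49 and 0.82. The 3 genes whose log2 CPM followed that of DNAJB9 most closely over the 8 libraries, among 9645 genes with a mean of at least 10 CPM, were CABLES1 (Pearson r 0.969), CORO1A (0.964) and GATB (0.929); the libraries share their groups and lines, and this is a description.

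The lectins and disulfide isomerases that fold glycoproteins were the role with most calls for CBE. With CBE 5 of 6 rose and with KO 1 of 6, where 4.56% and 4.51% of all genes were called higher. With KO 3 of the 6 had an unadjusted edgeR p under 0.05, and the test of the difference given below called only CANX. Of the 5 CBE calls, only that of CANX held in each of 18 alternative analyses. CANX (ENSG00000127022, chromosome 5, 179678628 to 179731641), calnexin, the membrane-bound lectin, gave 277 and 305 CPM from AAVS1 KO cells and 340 and 384 from HOTSCRAMBL KO (log2 fold change 0.31, edgeR adjusted p 0.0879). With CBE it went from 271 and 333 to 574 and 546 CPM, above all other libraries (0.90, SE 0.106, edgeR adjusted p 1.05e-06). CALR, its soluble counterpart, rose with CBE from 364 and 416 to 452 and 539 CPM (0.34, SE 0.0982, edgeR adjusted p 0.0256). With KO CALR had nearly the same value, from 398 and 420 to 491 and 513 CPM (0.30, SE 0.1), but did not pass (edgeR adjusted p 0.0687); it passed in 4 alternatives. The CBE call was lost without the line term (edgeR adjusted p 0.127), without any 1 of the CBE libraries (0.27 to 0.41, edgeR adjusted p 0.0924 to 0.248) and without either AAVS1 KO library (edgeR adjusted p 0.0594 and 0.0604).

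P4HB, protein disulfide isomerase itself, rose with both editors by a small amount, from 703 and 742 to 877 and 983 CPM with KO (0.36, SE 0.0894, edgeR adjusted p 0.00876) and from 637 and 790 to 829 and 914 CPM with CBE (0.29, SE 0.0882, edgeR adjusted p 0.0341). Both calls were lost without the line term (edgeR adjusted p 0.081 and 0.193), the KO call without any 1 of the KO libraries (0.31 to 0.43, edgeR adjusted p 0.08 to 0.199), and the CBE call without any 1 of the 8 libraries (0.21 to 0.39, edgeR adjusted p 0.0534 to 0.418). PDIA3, the isomerase that works with the lectins, rose with CBE from 23.3 and 25 to 45.8 and 41.7 CPM (0.87, SE 0.241, edgeR adjusted p 0.0202) and PDIA6 from 32.1 and 25.8 to 54.3 and 52.1 CPM (0.88, SE 0.25, edgeR adjusted p 0.0254). Leaving out any 1 CBE library ended both calls (PDIA3 0.72 to 0.99, edgeR adjusted p 0.0782 to 0.359; PDIA6 0.60 to 1.22, edgeR adjusted p 0.0898 to 0.454), and so did either AAVS1 KO library for PDIA6 (edgeR adjusted p 0.0743 and 0.0766). PDIA4 had 0.16 and 0.13.

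XBP1 (ENSG00000100219, chromosome 22, 28794555 to 28800597) rose with CBE, and its effect differed between the editors in the test given below. It gave 168 and 182 CPM from AAVS1 KO cells, 162 and 149 from HOTSCRAMBL KO, 181 and 164 from AAVS1 CBE and 429 and 420 from HOTSCRAMBL CBE. Both HOTSCRAMBL CBE libraries were above all others, and the rise with CBE was 2.46-fold (log2 fold change 1.30 with SE 0.115, edgeR adjusted p 7.42e-09), against −0.18 with KO (edgeR adjusted p 0.49). The counts are per gene and do not separate spliced from unspliced XBP1. ERN1, the sensor that splices XBP1 mRNA, rose with KO from 51.5 and 57.0 to 110 and 78.3 CPM (0.78, SE 0.201, edgeR adjusted p 0.0123) and lost that call without AAVS1 KO replicate 1 (0.55, edgeR adjusted p 0.387) or HOTSCRAMBL KO replicate 1 (0.57, edgeR adjusted p 0.291). With CBE ERN1 had −0.07, or 0.06 without AAVS1 CBE replicate 2 and 0.05 without HOTSCRAMBL CBE replicate 2. ATF6, the sensor cleaved in the Golgi, had 0.32 and 0.28 and did not pass; the latter was −0.07 without AAVS1 CBE replicate 2.

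**Figure D3:**
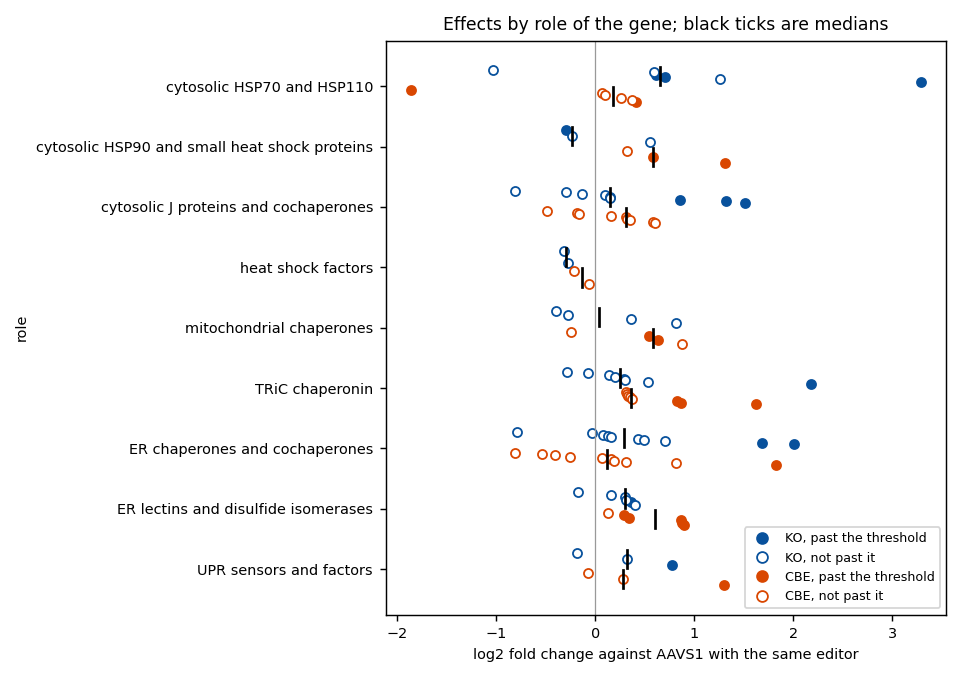
Log2 fold change of each of the 51 genes against AAVS1 with the same editor (horizontal axis), by role (vertical axis), in blue for KO and orange for CBE; filled points passed the threshold and black ticks are medians. Filled orange points gather in the lectins and disulfide isomerases (5 of 6, of which only CANX kept its call in every alternative analysis). The outermost points are HSPA1B, at 3.29 with KO and −1.86 with CBE.

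Setting the 2 editors side by side, 22 genes passed with at least 1 editor (43.1%, against 14.2% of all genes) and 6 with both (11.8%, against 3.38%). HSPA8, CCT5, MANF and P4HB moved the same way (7.84%, against 3.07%), while HSPA1B and HSP90AB1 moved in opposite directions (3.92%, against 0.316%). Over all 51 genes, 29 were above 0 with both editors (27.5% of all genes were), 6 below 0 with both (29.3%), 6 above only with KO (21.7%) and 10 above only with CBE (21.5%). Across the genes the log2 fold changes with KO and CBE had a Pearson correlation of −0.05 and a Spearman correlation of 0.17; the 2 comparisons share no library, and genes are not independent replicates. Neither set of fold changes followed the exon length of the genes closely (Pearson −0.19 with KO and −0.10 with CBE).

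**Figure D4:**
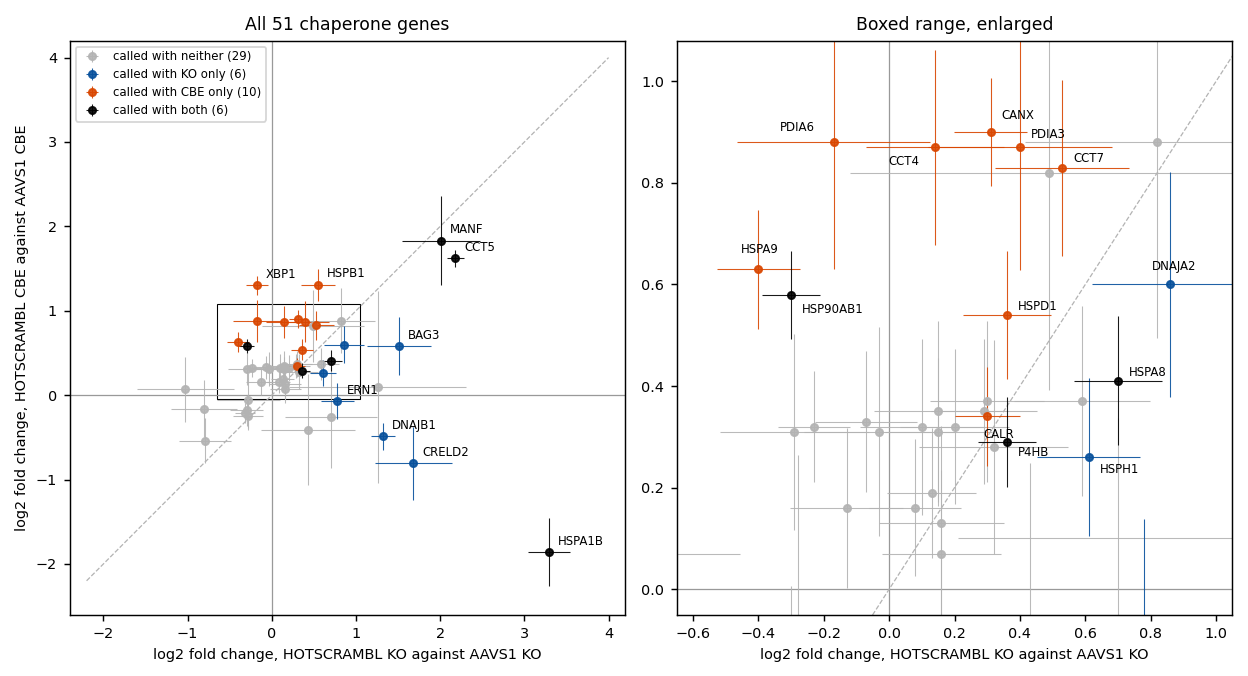
Log2 fold change with KO (horizontal axis) against that with CBE (vertical axis) for the 51 genes, with bars of 1 SE and colour for the editor that called the gene; the right panel enlarges the box of the left one. MANF (2.01, 1.83) lies near the dashed line of equal effects and CCT5 (2.18, 1.62) somewhat below it. HSPA1B (3.29, −1.86) lies far below that line and XBP1 (−0.18, 1.30) above it.

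A test of the difference between the editors' effects called 9 of the 51 genes (17.6%), 4 higher and 5 lower with KO, where 3.19% of all genes passed (1.74% higher, 1.45% lower); 13 had an unadjusted p under 0.05 (25.5%, against 14.1% of all genes). HSPA1B differed by 5.15 on the log2 scale (SE 0.47, edgeR adjusted p 8.25e-08) and DNAJB1 by 1.81 (SE 0.209, edgeR adjusted p 3.28e-06). The inducible HSP70 and its J protein thus differed in the same direction, but other heat shock genes went either way. BAG3 had 0.94 and HSPH1 0.35, while HSPB1 had −0.77 and HSP90AA1, the stress-inducible HSP90, −0.56. Of these, only HSP90AA1 passed in the main test. XBP1 differed by −1.48 (SE 0.172, edgeR adjusted p 3.28e-06), HSPA9 by −1.02 (SE 0.174, edgeR adjusted p 0.000619) and HSP90AB1 by −0.89 (SE 0.124, edgeR adjusted p 5.06e-05). The differences of HSPA1B, DNAJB1, XBP1, HSPA9 and HSP90AB1 passed in each of 17 alternatives. CCT5 and CRELD2 were higher with KO, and CANX and HSP90AA1 lower, but each of these 4 lost its call when single libraries were left out: CCT5 (0.56, edgeR adjusted p 0.0278) without any library other than HOTSCRAMBL KO replicate 1, CRELD2 (2.49, edgeR adjusted p 0.0252) without any of the 8, CANX (−0.59, edgeR adjusted p 0.0314) without any other than HOTSCRAMBL CBE replicate 2, and HSP90AA1 (−0.56, edgeR adjusted p 0.0467) without any other than AAVS1 CBE replicate 2. Left-out values ran from 0.37 to 0.68 for CCT5, 2.16 to 3.20 for CRELD2, −0.45 to −0.68 for CANX and −0.30 to −0.71 for HSP90AA1. Without the line term the calls of CCT5, CANX and HSP90AA1 were also lost (edgeR adjusted p 0.215, 0.145 and 0.135). With limma-voom the differences of CCT5 (limma-voom adjusted p 0.571) and HSP90AA1 (0.532) did not pass either, nor did that of HSP90AA1 with RLE scaling (edgeR adjusted p 0.0842), DESeq2 (DESeq2 adjusted p 0.0677) or halved counts (edgeR adjusted p 0.0507). HSPA1B rose with KO and fell with CBE, and DNAJB1 rose with KO and had −0.49 with CBE. The ribosomal protein and abundant cytosolic mRNAs rose with both editors. The nuclear-retained RNAs had a median of 0.53 with KO and −0.34 with CBE. The part of these shifts in the differences between the editors was not tested.

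The controls give the background of the comparison. Between AAVS1 KO and AAVS1 CBE edgeR called 0 of the 51 genes, and 0% of all genes, with a smallest adjusted p of 0.991 among the 51; 4 of them had an unadjusted p under 0.05 (7.84%, against 3.82% of all genes), and DESeq2 called 0 of the 51 too. These 4 were HSPA8 (−0.29), CCT3 (−0.33), CRELD2 (−1.01) and PDIA4 (0.44), picked on their p. The libraries labelled MOLM13 were also set against those labelled OCI-AML4, where edgeR again called 0 of the 51. Of all genes it called 0.495% (0.237% higher and 0.258% lower), which is 119 of 24057. Of the 51, 10 had an unadjusted edgeR p under 0.05 (19.6%, against 9.19% of all genes). The smallest adjusted p there was that of CCT5 (log2 fold change 0.27, edgeR adjusted p 0.116), and DESeq2 called 4 (CCT5, DNAJC3, DNAJA3 and DNAJB1). Deviations of libraries with the same line label correlated at r 0.0154 to 0.0411 over all tested genes and 0.0985 to 0.305 over the 51. Whether the labels give the true line of each library was not tested. Agreement between the libraries of a group is therefore not read as replication in separate lines.

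Per kilobase of exon, the level in the 4 control libraries spanned a wide range. The length used is that of all annotated exons of a gene together, which can far exceed that of a single transcript. For P4HB it is 11132 bases, against 2529 windows of 75 bases in its longest coding transcript, and for CALR 2802 against 1829. The order below holds for this measure only and was not worked out per transcript. HSP90AB1 was highest at 303 ± 20.1 CPM per kb (SD, n = 4), and its 4 libraries overlapped those of no other gene of the list. HSP90AA1 at 175 ± 24.6 and CALR at 143 ± 9.12 followed and overlapped each other, with a lowest HSP90AA1 library of 146 and a highest CALR library of 150 CPM per kb. P4HB (64.5 ± 5.84), CCT5 (62.0 ± 8.46) and XBP1 (57.4 ± 2.99) lay below CALR without overlap and overlapped among themselves, as did HSPA8 (44.5 ± 7.56) and HSF1 (43.0 ± 3.71) below them. HSPA5 stood at 22.5 ± 0.654. The lowest were MANF (1.96 ± 0.915), CRELD2 (1.74 ± 0.794), HSPA13 (1.45 ± 0.508) and HSPA1A (0.423 ± 0.242). MANF and CRELD2, which gave some of the largest fold changes, thus rest on low levels.

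Other genes of the same pathways were taken from a list of 93, all of which were tested. With KO 7 rose and 5 fell (12.9%, against 8.76% of all genes; median 0.12), and with CBE 7 rose and 4 fell (11.8%, against 8.83%; median 0.21). These shares lie near those of all genes, so the values that follow describe single genes. HERPUD1, an ER degradation factor induced under ER stress, rose with KO (1.18, SE 0.163, edgeR adjusted p 1e-05) and had −0.06 with CBE, a difference of 1.24 (edgeR adjusted p 0.00192). ST13, an HSP70 cochaperone, rose with both (1.2 and 0.94, edgeR adjusted p 0.000242 and 0.00213), as did EDEM1, which directs misfolded glycoproteins to degradation (0.56 and 0.73, edgeR adjusted p 0.0169 and 0.000732). ATF4, the transcription factor of the PERK branch, rose with KO (0.49, edgeR adjusted p 0.00626) and had 0.31 with CBE (edgeR adjusted p 0.0862). PPP1R15A, a target of that branch which restores translation, fell with both (−0.79 and −0.71, edgeR adjusted p 1.14e-06 and 5.46e-06), and so did NPLOC4, a cofactor of p97 (−0.62 with each, edgeR adjusted p 0.0109 and 0.00506).

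CDC37, which brings kinases to HSP90, fell with CBE (−1.07, SE 0.104, edgeR adjusted p 4.76e-08) and had 0.19 with KO, a difference of 1.26 (edgeR adjusted p 3.28e-06). It thus went the opposite way to HSP90AB1 in the CBE libraries. With CBE, FKBP5, an HSP90 cochaperone, rose by 0.71 (edgeR adjusted p 0.00123) and DNAJC8 by 1.31 (edgeR adjusted p 0.00156). With KO, DNAJC1, a J protein of the ER membrane, fell (−1.32, edgeR adjusted p 1.74e-05), and its effects differed by −1.15 between editors (edgeR adjusted p 0.00741). HSPA1L, the third HSP70 gene beside HSPA1A and HSPA1B, had 2.79 with KO (SE 0.921, edgeR adjusted p 0.058) and −1.96 with CBE, at levels from 0 to 9.49 CPM, and was picked after its values were seen. Some 75-base windows of HSPA1A and HSPA1B also occur in HSPA1L. HSPA6, looked at with it, had 0.23 with KO (edgeR adjusted p 0.907) and −2.58 with CBE (edgeR adjusted p 0.211). HSPA7 had −1.3 and 0.59 (edgeR adjusted p 0.614 and 0.788).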

How the data were processed

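The deposited table holds read counts per gene from ChIRP pull-down RNA in 8 libraries (4 groups of 2, from the sample titles). Per the submitters' processing notes and the file headers, the authors counted with featureCounts 2.0.6 on Ensembl 112 annotation of GRCh38; per the file header strand was not used, reads with several places or genes were left out, and both mates of a pair were counted. The aligner is not stated; the alignment folder in the file header is named for STAR. The counts used 0 columns of other samples; 2 broken records were rejoined, and 62541 of 63140 identifiers had a symbol. Reads carry no molecular identifiers, so count precision covers counting error only.

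Genes were tested with edgeR 4.0.16 (R 4.3.3): TMM, filterByExpr (minimum count 10, 24057 genes kept), robust quasi-likelihood F-test in its current form, all 8 libraries, terms for the 4 groups and the labelled line (3 residual degrees of freedom), Benjamini-Hochberg adjustment over all genes at 0.05. Pairing comes from the labelled line; same-line deviations correlated at r 0.0154 to 0.0411 over all tested genes and 0.0985 to 0.305 over the 51. The spread of each gene was drawn towards that of other genes, with a median of 22.2 prior degrees of freedom. Intervals are log2 fold change ± 1.96 SE. They ignore the finite degrees of freedom of the F-test and so are narrower than that test allows. Alternatives were other scalings and filters, DESeq2 1.42.0, limma-voom 3.58.1, no line term, 4 libraries at a time, halved counts, single libraries left out and, added after seeing the data, the earlier form of the edgeR test.

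The genes, lists and tests were chosen with earlier results of these data known. Names followed a rule (per comparison and direction the 8 called genes with the smallest p, plus fixed genes; 3 for the other list); DNAJA2, PDIA3, PDIA6 and P4HB with CBE, and remaining members, were added to account for all 51. Transcript windows were compared in GENCODE 29, and coordinates are those of the count table.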

Additional observations from a re-analysis of the deposited data

Results flagged for a closer look

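For 9 chaperone genes the effect of targeting HOTSCRAMBL differed between the editors by the edgeR test of the difference, which called 3.19% of all genes. On the log2 scale the KO effect minus the CBE effect was 5.15 for HSPA1B, 2.49 for CRELD2, 1.81 for DNAJB1 and 0.56 for CCT5. It was −1.48 for XBP1, −1.02 for HSPA9, −0.89 for HSP90AB1, −0.59 for CANX and −0.56 for HSP90AA1. In each of the 9 the 2 labelled lines gave the difference the same sign. Genes picked for a small p in these same libraries would mostly do so, and this adds no separate evidence. Groups of 2 are too small for a check of single outlying libraries.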

How the results depend on the processing

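Counts of called chaperone genes moved with single libraries left out, with the pooling of the spread and with the tool. With KO, 12 calls became 21 with DESeq2 and 4 with only the 4 libraries compared, and 3 to 12 with 1 library left out; with CBE, 16 became 5 with 4 libraries and 6 to 14 with 1 left out; for the difference, 9 became 5 or 6 with 1 left out. The median KO fold change of 0.29 was 0.31 with RLE scaling, the CPM filter, DESeq2 or halved counts, 0.22 with limma-voom, 0.13 without TMM and 0.23 to 0.31 with 1 library left out, and the CBE median of 0.32 was 0.18 without TMM. Between labelled lines, 0 calls became 1 with no filter, with limma-voom or with the earlier edgeR method, and 4 with DESeq2. Without the line term (no replicate block) the calls were 10 with KO, 13 with CBE and 6 for the difference, and the block changed no other call than those named above. Over all genes, KO calls went from 2108 to 4150 with DESeq2, 661 with 4 libraries and 701 to 1033 with 1 KO library left out; CBE calls from 2124 to 3351, 528 and 579 to 1112; the difference from 767 to 2205 with DESeq2, 503 without the block and 234 to 370 with 1 left out. Control calls went from 0 to 35 with DESeq2, and line calls from 119 to 715, to 265 with limma-voom, 193 with the earlier method and 26 to 58 with 1 left out. Over all 51 genes and these alternatives, the sign of the KO or CBE value turned only where edgeR had not called the gene. In KO without TMM these were DNAJA1 and DNAJC7 (−0.01 each), STIP1 (−0.06), CCT4 (−0.02), HSPA5 (−0.03) and HSP90B1 (−0.08). With 1 library left out they were CCT2 (−0.62 to 0.07), BAG1 (−0.31 to 0.04), STIP1 (−0.01 to 0.24), HSF2 (−0.67 to 0.06), HSPA13 (−0.12 to 0.82), DNAJC3 (−0.14 to 0.14), PDIA6 (−0.89 to 0.29) and DNAJB9 (−1.23 to 1.30). In CBE they were HSPA1A (−0.04 without TMM), HSPA14 (−0.07), HYOU1 (−0.06) and PDIA4 (−0.01), and with 1 library left out HSPA14 (−0.34 to 0.66), DNAJB4 (−0.70 to 0.53), HSF2 (−0.28 to 0.21), HYOU1 (−0.07 to 0.19), PDIA4 (−0.16 to 0.43), HSPA1A (−0.67 to 1.46), HSP90B1 (−0.08 to 0.39), DNAJB9 (−0.84 to 0.05), SDF2L1 (−0.73 to 0.02), ERN1 (−0.24 to 0.06) and ATF6 (−0.07 to 0.77). The cause was not tested; fits with fewer libraries have fewer residual degrees of freedom.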
